A study of Mus musculus with 8 samples.

Results

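Zhx1, Zhx2 and Zhx3 are the genes of the zinc fingers and homeoboxes (ZHX) family, and their RNA was examined in activated B cells of control mice and of mice with a B cell deletion of Eif4a1, the gene of an RNA helicase of the translation initiation complex EIF4F. The family was selected on the p-value and direction of Zhx2 between genotypes, which was among the most significant increases in the 4A1 KO libraries. Zhx1 and Zhx3 were taken in as its paralogs and not for their own values. The 3 genes were found by symbol among 53242 genes in the deposited tables, and all 3 had enough counts to be tested.

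ZHX proteins are nuclear proteins with C2H2 zinc fingers near the amino terminus followed by several homeodomains. They form homodimers and heterodimers with one another, bind the NF-YA subunit of the CCAAT-box factor NF-Y, and act mainly as repressors of transcription. Zhx2 is best known from the liver, where it is the gene of the Afr1 locus that controls the silencing of alpha-fetoprotein after birth.

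Splenic B cells came from C57BL/6 mice aged 8 to 12 weeks and were activated over 24 h on irradiated CD40LB cells in medium with 40 ng/ml of IL4. CD40LB cells are fibroblast feeders that express CD40 ligand and human BAFF, and they were removed afterwards with beads against H-2Kd. Both genotypes carried Cd23-cre, which is active from the immature B cell of the spleen onwards. Control mice were Eif4a1+/+ Cd23-cre and 4A1 KO mice were Eif4a1 fl/fl Cd23-cre, with loxP sites around exons 2 to 4. There were 4 libraries per genotype: replicates 1 and 3 came from males, 2 and 4 from females, 1 and 2 formed batch A, and 3 and 4 formed batch B. The study excluded replicate 1 of both genotypes for low viability, so the comparison rests on replicates 2 to 4 (n = 3 per genotype), and replicate 1 is given as a value.

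Between 31727557 and 43210858 reads were counted per library. Eif4a1 lay between 748 and 940 counts per 1000000 counted reads (CPM, scaled by the TMM method) in the 4 control libraries and between 556 and 689 CPM in the 4A1 KO libraries, with no overlap. The ratio of the 4A1 KO to the control mean was 0.734 in replicates 2 to 4. The counts cover the whole gene and do not show exons 2 to 4 apart, so they do not measure the deletion itself. The summed level of 6 B cell markers was 3520 to 3726 CPM in control and 2880 to 3104 CPM in 4A1 KO libraries, and 3 of them (Cd79a, Cd79b and Cd22) were decreased. The sum of 10 fibroblast markers was 27.7 to 48.8 CPM against 23.6 to 35.3 CPM, with Lum at 0 counts. Of the 6 that were tested, Fn1 was increased and Col3a1 decreased, and neither was called without the replicate block. The sum of 5 plasma cell markers was 622 to 929 CPM against 549 to 691 CPM, and 3 of them (Sdc1, Prdm1 and Xbp1) were decreased. The sum of 6 myeloid markers was 8.68 to 14.7 CPM against 14.2 to 16.3 CPM, and of the 4 tested Adgre1 was increased. Cd79a was not called without the block, Prdm1 and Adgre1 neither without the block nor with all 8 libraries, and Col3a1 neither with all 8 libraries nor in DESeq2. All 5 of these calls (Cd79a, Prdm1, Adgre1, Fn1 and Col3a1) were lost in glmTreat. The call of Fn1 was lost without replicate 3, and those of Col3a1 and Adgre1 without replicate 4. Other markers were called in single fits, with Jchain (0.94), Cd68 (0.50) and Thy1 (-0.63) past the thresholds without replicate 2, Lyz2 (1.36) without replicate 3, and Col1a1 (-0.80) and Col1a2 (-0.85) without replicate 4. Thy1 was also called (-0.50) with DESeq2's size factors and with the filter of at least 1 count. Over all genes tested 11.6% were increased and 13.7% decreased. The 6 T cell markers together stayed at or below 1.11 CPM and the 4 erythroid markers at or below 0.150 CPM in every library. The part of these differences in the values of the ZHX genes was not tested. In bulk RNA, fewer cells with a transcript and less transcript per cell cannot be told apart.

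Zhx2 and Zhx1 are neighbours on mouse chromosome 15 of GRCm39. Zhx2 (ENSMUSG00000071757) runs from 57558048 to 57703228 on the plus strand, and Zhx1 (ENSMUSG00000022361) from 57910399 to 57940136 on the minus strand, with 207 kb between them. Zhx3 (ENSMUSG00000035877) lies on chromosome 2 from 160590628 to 160714918 on the minus strand. Each canonical transcript has 4 exons, and exon 3 holds the whole coding sequence of Zhx1 (2622 nucleotides) and Zhx2 (2511 nucleotides) and 99.7% of that of Zhx3 (2856 nucleotides). Downstream of the coding sequence Zhx1 has 1786 nucleotides, Zhx2 1246 and Zhx3 6430. Between the aligned coding sequences 63.5% of bases were identical for Zhx1 and Zhx2, 60.8% for Zhx1 and Zhx3, and 63.5% for Zhx2 and Zhx3.

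The zinc fingers are shown at the level of the coding sequence because they are a feature that names the family. Each stretch begins at the first cysteine codon of a finger, read from the coding sequence of the canonical GENCODE transcript, and covers 30 bases of exon 3. The codons of the cysteine pair are in capitals.
Zhx1 finger 1 (chr15:57918002-57918031, minus strand): TGTaaatatTGTacttttcaaactccagat
Zhx2 finger 1 (chr15:57684870-57684899, plus strand): TGCaaatacTGCccttattccacgcaaaat
Zhx3 finger 1 (chr2:160623902-160623931, minus strand): TGTaaagagTGTgagttcaggtcccaggat
Zhx1 finger 2 (chr15:57917906-57917935, minus strand): TGTgttgaaTGCaattttcttaccaaaagg
Zhx2 finger 2 (chr15:57684966-57684995, plus strand): TGTgccgaaTGTaacttcacaaccaaaaag
Zhx3 finger 2 (chr2:160623806-160623835, minus strand): TGTacagggTGCagtttcctggcaaaaaac
In each of the 3 genes, 2 stretches had the spacing of a C2H2 finger, each 22 codons from the first cysteine to the last histidine. The first finger began at codon 72 in Zhx1, 80 in Zhx2 and 79 in Zhx3, and the second at codon 104, 112 and 111. The search pattern fixed the spacing of the cysteine pair, so that spacing is the same in all by construction.

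Zhx2 RNA was higher in every 4A1 KO library than in any control library. In replicates 2 to 4, 50.9% of the genes tested had groups that did not overlap, and the share over all 8 libraries was not computed. It had 28.0, 35.0 and 29.5 CPM in control replicates 2, 3 and 4 and 79.3, 91.3 and 74.4 CPM in the same replicates of 4A1 KO. The means were 30.8 ± 3.70 CPM (SD, n = 3) and 81.7 ± 8.66 CPM (SD, n = 3), a ratio of 2.65, and the log2 fold change in the model with batch and sex was 1.41 (standard error 0.06). No p-value is given, since the gene was chosen for this difference. By p it stood at rank 2 of the 1647 genes called increased, which were 11.6% of the 14218 genes tested. A gene was called where edgeR's quasi-likelihood test gave an adjusted p under 0.05 and the log2 fold change exceeded 0.5 in size.

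Replicate 1 was left out of these means. Zhx2 had 30.6 CPM in control 1 and 88.3 CPM in 4A1 KO 1, a ratio of 2.89. The ratios within the other pairs were 2.83 for replicate 2, 2.61 for replicate 3 and 2.53 for replicate 4. These ratios are part of the difference for which Zhx2 was chosen and are a description. With all 8 libraries in the model, in which 25.6% of genes were called, the log2 fold change was 1.44 (standard error 0.06).

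Zhx1, the close neighbour and paralog, differed little. It had 99.4, 101 and 99.3 CPM in control replicates 2, 3 and 4 and 108, 107 and 106 CPM in 4A1 KO. The groups did not overlap in these 6 libraries, as was the case for 50.9% of the genes tested, and each 4A1 KO library exceeded its control by a ratio of 1.05 to 1.08. The log2 fold change was 0.10 (standard error 0.05) and did not pass the same test (edgeR, Benjamini-Hochberg adjusted p = 0.129). In replicate 1 it had 82.1 CPM in control and 88.7 CPM in 4A1 KO, a ratio of 1.08 at a lower level, so that the groups overlapped over all 8 libraries. Of 6303 exon nucleotides of Zhx1, 662 are shared on the same strand with the gene Gm29394, which had 1255 to 1974 counts per library, and the share of reads assigned to either gene is uncertain. Gm29394 had a log2 fold change of -0.25 (standard error 0.06).

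Zhx3, the least abundant of the family, was lower in 4A1 KO in all pairs. It had 10.1, 10.3 and 14.0 CPM in control replicates 2, 3 and 4 and 8.31, 8.21 and 9.83 CPM in 4A1 KO. Control 1 had 7.42 CPM and 4A1 KO 1 had 6.65 CPM. The groups did not overlap in replicates 2 to 4, as was the case for 50.9% of the genes tested. They overlapped once replicate 1 was included, since control 1 lay below 3 of the 4A1 KO libraries. The ratios within pairs were 0.896, 0.823, 0.799 and 0.702 for replicates 1 to 4.

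The log2 fold change of Zhx3 in the counts was -0.37 (standard error 0.10, edgeR adjusted p = 0.0106). It therefore passed the adjusted p, as 53.0% of all genes tested did, but not the fold change needed for a call. Both criteria together were met by 25.3% of genes in either direction. The adjusted p was 0.0983 in edgeR without the replicate block and 0.0662 without replicate 4, the pair with the lowest ratio. Of 17079 exon nucleotides of Zhx3, 379 overlap Plcg1 on the opposite strand, and counting used the strand.

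**Figure D1:**
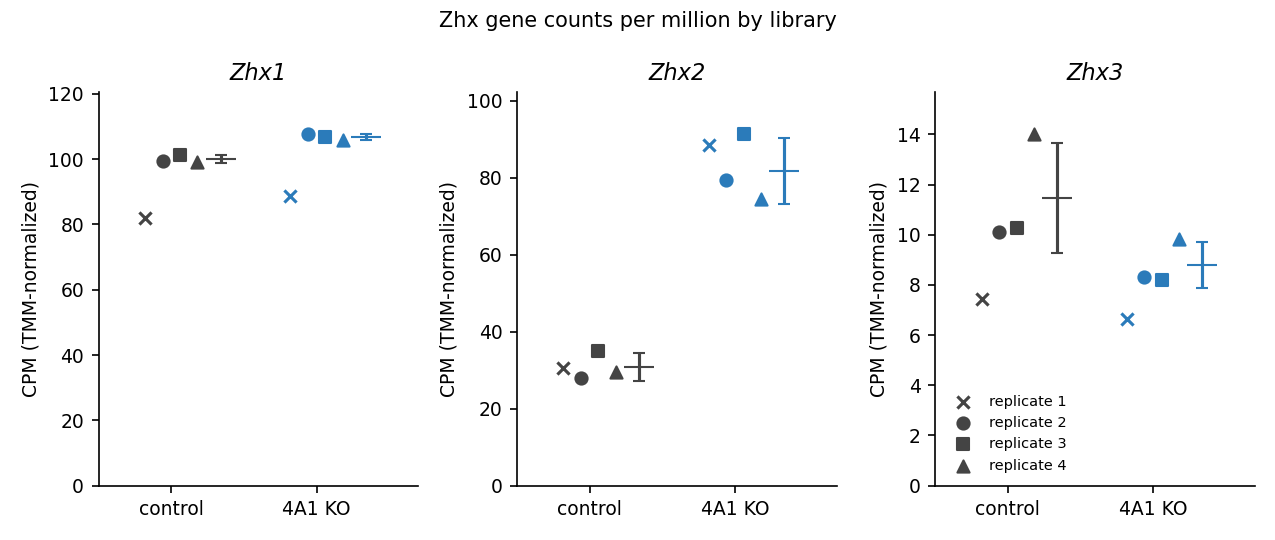
CPM (y axis, TMM-normalized, from 0) of Zhx1, Zhx2 and Zhx3 in the control and 4A1 KO libraries. Symbols give the replicate, and the bar with its error is the mean and SD of replicates 2 to 4. Zhx2 lies between 28.0 and 35.0 CPM in control and between 74.4 and 91.3 CPM in 4A1 KO, while Zhx1 and Zhx3 overlap between the genotypes once replicate 1 is included.

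The deposited TPM (transcripts per 1000000 transcripts), which are scaled by transcript length, allow the levels of the 3 genes to be compared. In control libraries 2 to 4 Zhx1 was the most abundant at 39.6 ± 0.979 TPM (SD, n = 3), followed by Zhx2 at 13.3 ± 1.55 TPM and Zhx3 at 3.75 ± 0.662 TPM. These levels did not overlap in any of the 4 control libraries. In 4A1 KO libraries 2 to 4 Zhx1 had 41.9 ± 0.602 TPM, Zhx2 35.2 ± 3.70 TPM and Zhx3 1.97 ± 0.230 TPM (SD, n = 3).

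The order of the first and second member was therefore less clear in 4A1 KO. The ratio of Zhx1 to Zhx2 in TPM was 2.49, 3.24, 2.67 and 3.07 in control libraries 1 to 4. It was 0.928, 1.23, 1.06 and 1.31 in 4A1 KO libraries 1 to 4, so that Zhx2 exceeded Zhx1 in 1 library, 4A1 KO 1. The ratio of Zhx2 to Zhx3 ran from 2.91 to 5.41 in control and from 14.7 to 24.8 in 4A1 KO libraries.

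As a share of the summed TPM of the family, Zhx1 made up 69.9% ± 1.60 (SD, n = 3) in control and 53.1% ± 2.46 in 4A1 KO. Zhx2 made up 23.5% ± 1.93 and 44.4% ± 2.68, and Zhx3 6.61% ± 1.04 and 2.50% ± 0.323. The sum itself was 56.7 ± 2.55 TPM in control and 79.0 ± 3.61 TPM in 4A1 KO. Zhx2 made up most of the difference in the sum, and the smaller differences of Zhx1 and Zhx3 had opposite signs. These shares contain the difference for which Zhx2 was chosen and are a description.

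**Figure D2:**
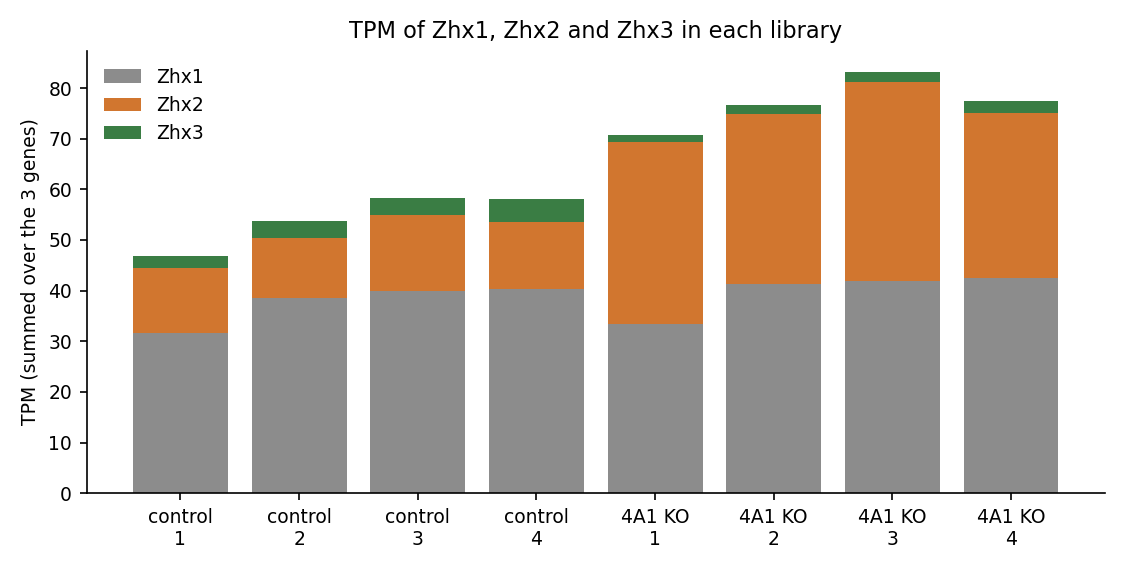
TPM (y axis, from 0) of the 3 ZHX genes, stacked in each of the 8 libraries (x axis, genotype and replicate). The Zhx1 segment is of like height in all libraries outside replicate 1, and the Zhx2 segment is larger in the 4A1 KO libraries than in control, where the summed TPM of replicates 2 to 4 is 79.0 against 56.7 in control.

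The TPM and the counts gave like differences for Zhx1 and Zhx2 and unlike ones for Zhx3. Zhx3 had 2.36, 3.36, 3.38 and 4.52 TPM in control libraries 1 to 4 and 1.45, 1.77, 1.93 and 2.22 TPM in 4A1 KO libraries 1 to 4. The groups did not overlap in TPM (exact permutation test, two-sided, 4 against 4, p = 0.0286, the smallest p that 4 against 4 allows). The share of all genes without overlap was not computed in TPM, and in the CPM of replicates 2 to 4 it was 50.9%. With sign flips within the 4 pairs, a test added after the data had been seen, the exact two-sided p was 0.125, the smallest that 4 pairs allow. In limma on log2(TPM + 1) Zhx3 was decreased by a log2 difference of -0.67 (standard error 0.07, adjusted p = 0.00418). Of the 12976 genes that averaged 1 TPM or more, 20.0% were called in TPM and 11.7% were decreased.

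For Zhx1 the difference on the same log2(TPM + 1) scale was 0.08 (limma, standard error 0.06, adjusted p = 0.295), and the exact permutation test over 8 libraries gave p = 0.457, and 0.125 with sign flips within the pairs. On the log2(TPM + 0.1) scale the TPM difference of Zhx3 was lower than that of the counts by 0.51, a gap exceeded by 1.51% of 12065 genes. The gap was -0.01 for Zhx1 and -0.01 for Zhx2, and the median absolute gap over the genes was 0.0234. Zhx3 has 13 annotated transcripts and a canonical transcript of 9747 nucleotides. The counts cover merged isoforms and the TPM come from estimated transcripts, and which of these choices sets the gap was not tested.

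**Figure D3:**
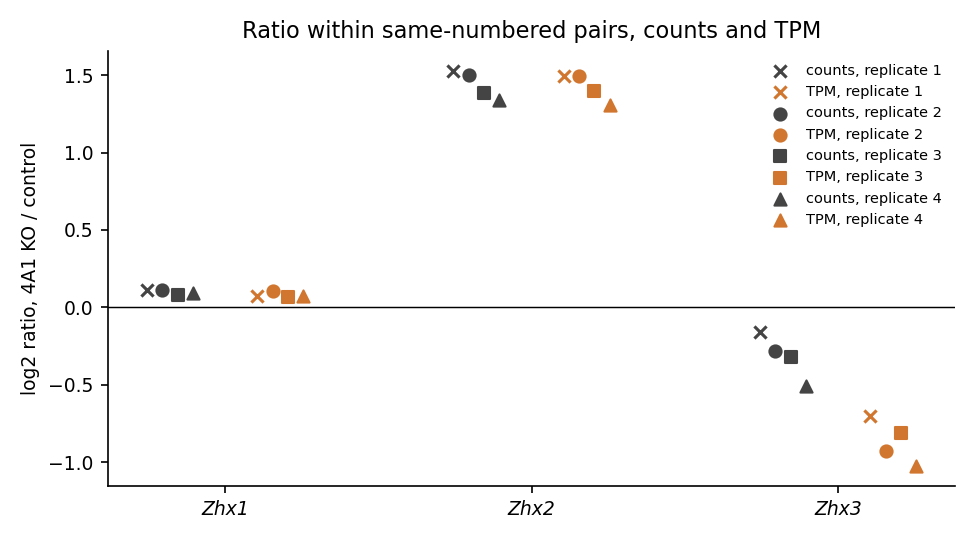
Log2 ratio of 4A1 KO to control (y axis) within each same-numbered pair for the 3 ZHX genes (x axis), from TMM-normalized counts in grey and from TPM in orange. The ratios of Zhx1 and Zhx2 are alike in both measures, while those of Zhx3 are lower in TPM than in counts in all 4 pairs.

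Sex and batch are contrasts that had no part in the choice of the genes. Over all 8 libraries Zhx3 was lower in males than in females by a log2 difference of -0.37 (standard error 0.08, edgeR adjusted p = 0.0335), where 6.88% of all genes tested passed the adjusted p and 2.43% were also past a log2 difference of 0.5, which Zhx3 was not. It was higher in batch B than in batch A by 0.38 (standard error 0.08, edgeR adjusted p = 0.00981), where 28.2% passed and 6.75% were also past that size. In the 6 libraries without replicate 1 the size was alike, -0.36 for sex (edgeR adjusted p = 0.297) and 0.36 for batch (edgeR adjusted p = 0.0822), but neither passed. Replicate 1, a batch A male pair of low viability, held the lowest Zhx3 values of both genotypes. The tests of sex and batch took the 8 libraries as independent, with no term for the same-numbered pair.

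Zhx2 had a log2 difference of 0.21 (standard error 0.06) between males and females (edgeR adjusted p = 0.0524) and of 0.05 between the batches (edgeR adjusted p = 0.513). The values of Zhx1 were -0.13 (edgeR adjusted p = 0.230) and 0.14 (edgeR adjusted p = 0.126). The difference between genotypes did not pass the test for varying with sex or batch for any of the 3 genes. For Zhx2 the interaction was 0.04 (standard error 0.12) with sex and -0.16 (standard error 0.12) with batch. For Zhx3 it was 0.16 and -0.20, both with a standard error of 0.17, and for Zhx1 -0.01 and -0.03, both with a standard error of 0.14. The adjusted p in edgeR was 1.00 for all of these. Few genes of any kind passed these tests, 0.00704% for sex and 0.0141% for batch.

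The genes around the family were examined within 0.5 Mb of each member. Of the 8 tested neighbours of Zhx2, 2 were decreased and 1 was increased, where 13.7% and 11.6% of all genes were. Tbc1d31, which lies between Zhx2 and Zhx1 and encodes a TBC domain protein of the centriolar satellite, was decreased by a log2 fold change of -1.19 (standard error 0.10, edgeR adjusted p = 3.60e-05). Atad2, a bromodomain ATPase on chromatin linked to DNA replication, was decreased by -0.98 (standard error 0.06, edgeR adjusted p = 1.02e-05). Fbxo32, the F-box protein atrogin, was increased by 0.96 (standard error 0.11, edgeR adjusted p = 1.55e-04). Derl1, a component of endoplasmic reticulum quality control and the nearest tested gene at 28.6 kb, had a log2 fold change of 0.23 (standard error 0.05) and was not called. None of the 3 tested neighbours of Zhx3 (Top1, Plcg1 and Chd6) was called, with log2 fold changes between -0.23 and 0.20.

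**Figure D4:**
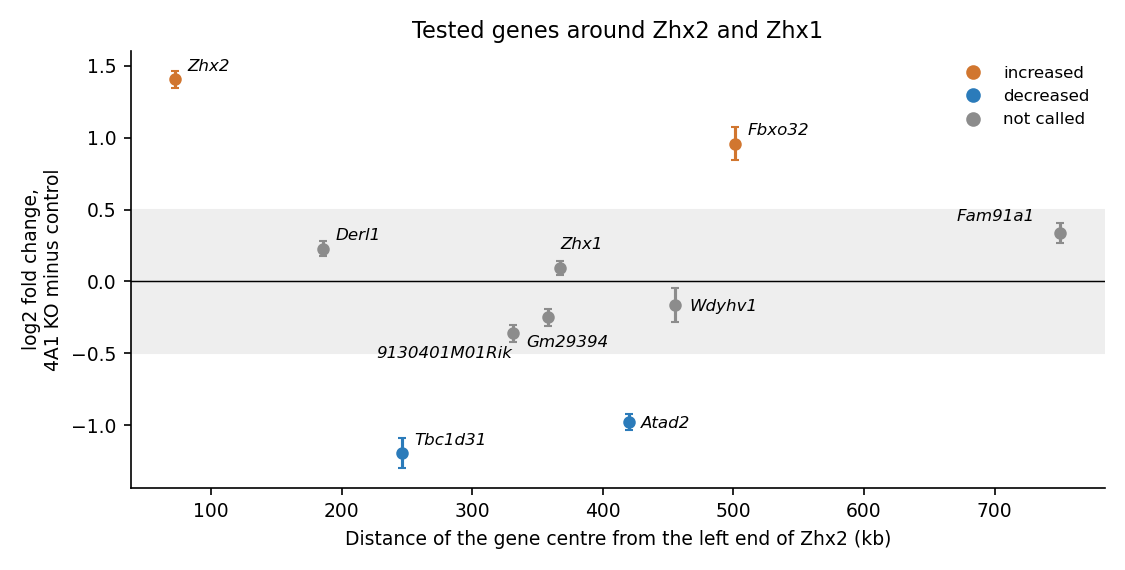
Log2 fold change between 4A1 KO and control with its standard error (y axis) for tested genes around Zhx2 and Zhx1, against the distance in kb of the gene's centre from the left end of Zhx2 (x axis). The grey band marks changes of at most 0.5, and colours mark increased, decreased and not called genes. Zhx2 at 1.41 and Fbxo32 at 0.96 are above the band, Tbc1d31 at -1.19 and Atad2 at -0.98 below it, and Zhx1 at 0.10 within it.

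Relatives of the family, genes of zinc finger homeobox factors together with Homez, were read from a list of 11, of which 8 were tested. Of these, 3 were increased and none was decreased, where 11.6% of all genes tested were increased and 13.7% decreased, and the median log2 fold change was 0.30, against 0.01 over all genes tested. Zeb2, a repressor that shapes lymphocyte and myeloid differentiation, had 33.9 ± 7.10 CPM in control and 54.3 ± 1.10 CPM in 4A1 KO (SD, n = 3) and was increased by 0.70 (standard error 0.11, edgeR adjusted p = 7.85e-04). Zfhx2 was increased by 0.89 (standard error 0.10, edgeR adjusted p = 1.25e-04), from 7.82 ± 1.65 to 14.4 ± 2.00 CPM (SD, n = 3). Zfhx3, a large factor also known as ATBF1, was increased by 0.89 (standard error 0.17, edgeR adjusted p = 0.00216) at a low level, from 1.51 ± 0.176 to 2.80 ± 0.378 CPM (SD, n = 3). The calls of Zeb2 and Zfhx3 were lost in edgeR's glmTreat test against a log2 fold change of 0.5 (adjusted p = 0.108 and 0.0560).

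Homez, the homeobox gene closest to the family in sequence, showed no difference beyond its spread. It had 5.71 ± 1.57 CPM in control and 5.94 ± 1.11 CPM in 4A1 KO (SD, n = 3). Its log2 fold change was 0.07 (standard error 0.16, edgeR adjusted p = 0.718). The remaining tested relatives, Zeb1, Adnp, Adnp2 and Tshz1, had log2 fold changes between -0.12 and 0.31 and were not called. Tshz2 and Tshz3 had no counts in any library, which allows up to 0.0946 CPM in the smallest library at 3 counts, and Zfhx4 had at most 4 counts.

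Among the 326 tested genes whose symbol begins with Zfp, the usual mark of a zinc finger protein in mouse, 75 (23.0%) were increased and 20 (6.13%) decreased. Over all genes tested the shares were 11.6% and 13.7%. The median log2 fold change of the Zfp genes was 0.26. With each replicate left out in turn, 58 to 85 Zfp genes were increased and 9 to 18 decreased. In glmTreat 26 Zfp genes were increased and 6 decreased, where 640 and 987 of all 14218 genes were. In DESeq2 63 of 323 Zfp genes were increased and 10 decreased, where 1212 and 1635 of all 13753 genes were. Genes with the coding sequence in 1 exon, as in Zhx1 and Zhx2, were counted for comparison. Without Zhx2, 113 of 667 were increased and 106 decreased, with a median of 0.04. With Zhx2 counted, the shares of this class were 17.1% increased and 15.9% decreased. For genes with the coding sequence in more than 1 exon they were 10.3% and 15.0%.

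The partners and regulators of ZHX proteins numbered 11, all tested, of which 2 were increased and none was decreased, with a median of 0.23. The share increased, 18.2%, was near the 11.6% of all genes. Rela, the p65 subunit of NF-kB, was increased by 0.65 (standard error 0.05, edgeR adjusted p = 2.01e-05), from 145 ± 4.52 to 228 ± 12.1 CPM (SD, n = 3). Efnb1, an ephrin ligand, was increased by 0.59 (standard error 0.16, edgeR adjusted p = 0.0127), a call lost without replicate 4 (0.40), in glmTreat (edgeR adjusted p = 0.497) and in DESeq2 with normal shrinkage, where the log2 fold change was 0.47. Both lay above the control in all 3 pairs.

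The subunits of NF-Y, the factor to which ZHX proteins bind, were not called. Nfya had 100.4 ± 13.9 CPM in control and 78.3 ± 12.3 CPM in 4A1 KO (SD, n = 3). Its log2 fold change of -0.36 (standard error 0.05, edgeR adjusted p = 3.89e-04) was too small for a call. Nfyb and Nfyc had log2 fold changes of 0.09 and 0.11. The VHL pathway, through which ZHX2 protein is hydroxylated and degraded, had values of 0.33 for Vhl, 0.23 for Egln1, 0.21 for Egln2 and -0.24 for Egln3, none of them called. Dnmt3b, a DNA methyltransferase that binds ZHX1, had 0.37, and Zmynd11, a reader of histone methylation, had 0.32.

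Genes that have been reported as repressed by ZHX2 in liver were read from a list of 9. Of these, 6 were tested, and of these 4 were decreased and 1 was increased, against 13.7% and 11.6% of all genes. The decreased genes were Afp and Abcb1a, both at a low level, and the cyclin genes Ccna2 and Ccne1. Afp, which encodes alpha-fetoprotein, was at a very low level of 14 to 63 counts per library and was decreased by -1.38 (standard error 0.32, edgeR adjusted p = 0.00596), from 1.30 ± 0.337 to 0.488 ± 0.135 CPM (SD, n = 3). Abcb1a, a drug efflux pump, was decreased by -1.53 (standard error 0.33, edgeR adjusted p = 0.00408), from 1.33 ± 0.694 to 0.439 ± 0.137 CPM. Lpl, the lipoprotein lipase gene, was increased by 0.99 (standard error 0.30, edgeR adjusted p = 0.0220), from 0.677 ± 0.104 to 1.41 ± 0.745 CPM. The call of Lpl was lost in edgeR without replicate 4 (0.52, adjusted p = 0.229), without the replicate block (adjusted p = 0.0676), in glmTreat (adjusted p = 0.174) and in DESeq2 with or without shrinkage (adjusted p = 0.106). In each of these alternatives none of the list was increased and 4 were decreased. With a minimum mean of 1 CPM, Afp and Abcb1a were not tested, and 2 of the 4 genes left were decreased and 1 was increased.

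The largest decreases on that list were those of cyclins. Ccna2, which drives S phase and mitosis, fell by 2.72 on the log2 scale (standard error 0.28), and Ccne1, which acts at entry into S phase, fell by 1.74 (standard error 0.18). Abcb1b had a log2 fold change of 0.14 and was not called. H19 and Gpc3, both silenced in liver after birth, had no counts in any library, and Elovl3 had at most 5 counts.

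The 8 cell cycle genes whose promoters are known to be bound by NF-Y at CCAAT boxes were all decreased, with a median log2 fold change of -2.49, against 13.7% of genes decreased overall. In DESeq2 with normal shrinkage all 8 were decreased as well, and the median was -1.37. Ccna2 is on this list as well. The values ran from -1.84 for Tk1, a thymidine kinase, to -2.72 for Ccna2, and included -2.27 for Ccnb1, the mitotic cyclin, and -2.61 for Cdk1, its kinase. Every one of the 8 was lower in all 3 pairs and in each fit that left out one replicate. The lists show where the known partners and targets of ZHX proteins lay in these cells, and no link to the level of Zhx2 was tested. The part in these values of the smaller share of S phase cells reported by the paper was not tested. Other cell cycle genes were not compared.

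**Figure D5:**
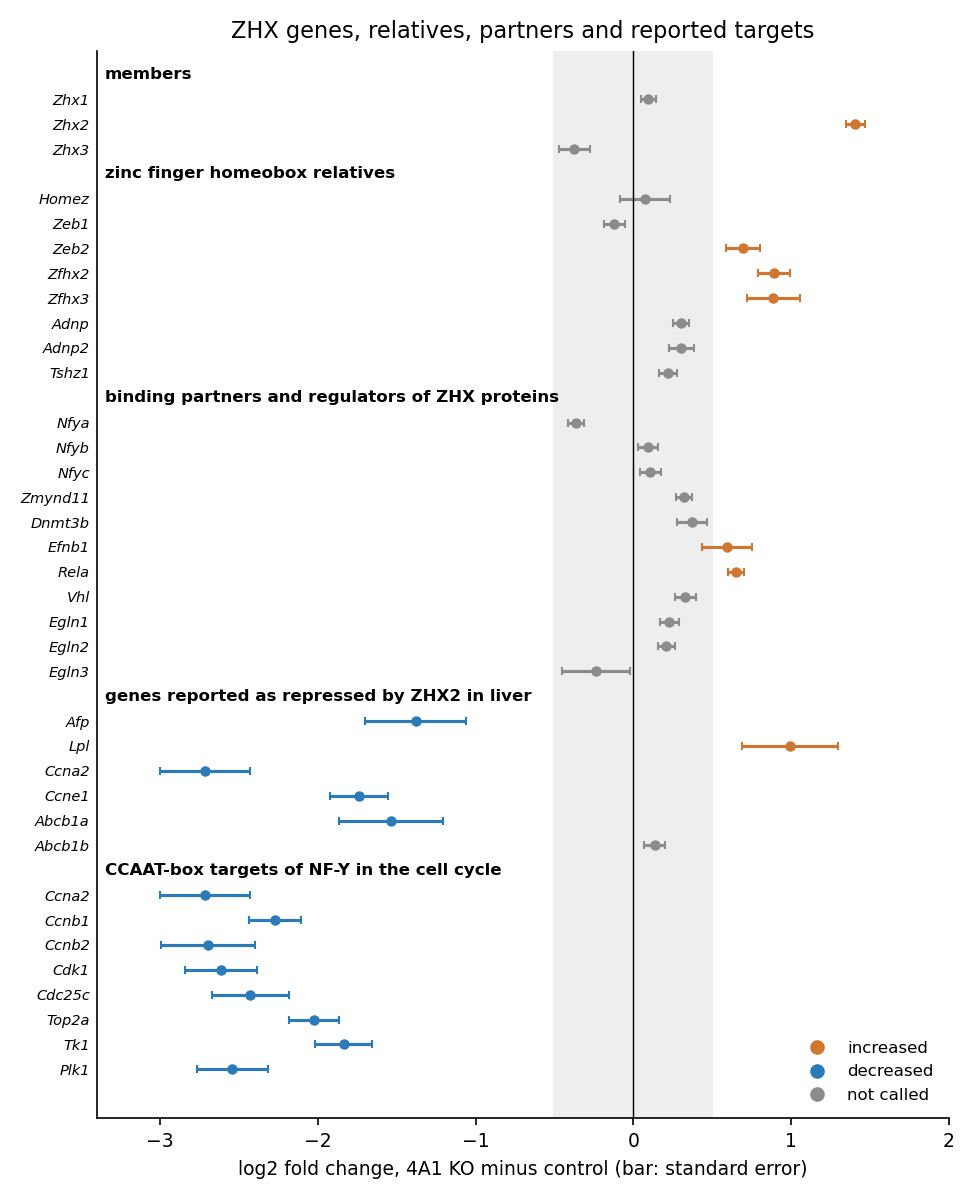
Log2 fold change between 4A1 KO and control (x axis) with its standard error for each tested gene of the ZHX family, the zinc finger homeobox relatives, the partners and regulators, the genes reported as repressed by ZHX2 in liver and the NF-Y targets (y axis). The grey band marks changes of at most 0.5, and colours mark increased, decreased and not called genes. Zhx2 at 1.41 is the highest value, and all 8 NF-Y targets lie at -1.84 or below.

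Variation within each genotype was compared after the genotype means had been subtracted, over the 8 libraries. Among the members, Zhx1 and Zhx3 varied together (Pearson r = 0.78), while r was -0.15 for Zhx1 and Zhx2 and -0.35 for Zhx2 and Zhx3. These points share libraries, depth and batch, and replicate 1 was low in both Zhx1 and Zhx3, so the values are a description with no test. Of 11831 genes that averaged 1 CPM or more, the 5 most like Zhx2 were Wdr5, a core subunit of histone H3K4 methyltransferases (r = 0.97), Slc30a1, a zinc exporter (r = 0.97), Utp23, a ribosome biogenesis factor (r = 0.96), Cers2, a ceramide synthase (r = 0.96), and Gm42870 (r = 0.95). Only Slc30a1 of these was called, increased by 1.54 (edgeR adjusted p = 1.53e-05).

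The genes most like Zhx1 were Zyg11b, Rpap3, Gabpa, Sec63 and Arcn1 (r = 0.98 to 0.99), none of them called between genotypes. Those most like Zhx3 were Bora, Timd2, Rapgef5, Ncoa7 and Odf2 (r = 0.98 to 0.99). Of these, Timd2 was increased by 0.65 (edgeR adjusted p = 3.00e-04) and Ncoa7 decreased by -0.75 (edgeR adjusted p = 6.97e-05). With 8 libraries and this many genes, values of this size are the upper end of a long list. Replicate 1, the pair of low viability, stood apart from the others in Zhx1 in both genotypes, and r was not computed without it.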

How the data were processed

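RNA from 8 B cell cultures (4 control, 4 4A1 KO) was sequenced by the authors. Per the labels and the methods, reads were trimmed (Trim Galore 0.6.6), mapped to GRCm39 (HISAT2 2.1.0) and counted by gene with Seqmonk over merged isoforms with opposing strand-specific paired reads. The authors deposited these raw counts, and TPM calculated with StringTie 2.1.1. How reads mapping to several places were counted is not given in the sources used here.

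The counts were fitted with edgeR 4.0.16 in R 4.3.3 (filterByExpr, TMM, quasi-likelihood test, batch and sex as covariates, two-sided, Benjamini-Hochberg adjustment over all genes tested) in replicates 2 to 4. Between 38488341 and 43210858 reads were counted in these libraries. In them batch and sex equal the replicate number as a block. Pairing comes from the batch and sex in the labels, and the deviations of same-numbered libraries from the genotype means correlated at 0.49, 0.40 and 0.33. The methods describe 4 mice per genotype, each replicate being a separate mouse. TPM were tested with limma 3.58.1 on log2(TPM + 1). Exact permutation tests used scipy 1.17.1. Sex, batch and interactions were tested in all 8 libraries. Of 53242 genes, 52647 were matched to GENCODE M39. The code was tested on simulated data.

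The genes named are the members, Eif4a1, list genes that were tested, called genes within 0.5 Mb and the 5 genes most like each member. Derl1, Top1, Plcg1, Chd6 and Gm29394 were named after their values were seen, and list genes not tested are named for their counts. The members and lists were chosen with earlier results of these data known. Alternatives were DESeq2 1.42.0 and its size factors, upper quartile scaling, filters on low values, the TPM pseudocount (0.1), no block, all 8 libraries, each replicate left out, and glmTreat.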

Additional observations from a re-analysis of the deposited data

Results flagged for a closer look

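Zhx1 was flagged because 1 library stood apart from the others of its group. In the control counts, replicate 1 at 82.1 CPM was far below the others, which lay between 99.3 and 101 CPM, and its gap to the nearest was 0.894 of the group's range. In the 4A1 KO counts, replicate 1 at 88.7 CPM stood below the others at 106 to 108 CPM (gap 0.910 of the range). The TPM of the same 4A1 KO library, 33.4 against 41.3 to 42.5, were flagged too (0.869). Of 12 groups of 4 examined, 3 were flagged, and chance flags about 1 in 20. The 3 flags are not independent, since CPM and TPM come from the same libraries. Replicate 1 was the pair excluded for low viability, and the part of viability in its Zhx1 level was not tested.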

How the results depend on the processing

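The log2 fold change of Zhx2 between genotypes lay between 1.36 and 1.44 in every alternative of the count fit, and that of Zhx1 between 0.08 and 0.12, with no adjusted p under 0.05. For Zhx3 the direction was kept in all alternatives. Its adjusted p no longer passed without the replicate block (-0.38), in glmTreat (-0.37), which tests against a fold change, and without replicate 4 (from -0.42 to -0.30 over the 3 fits that left out one replicate). The cause was not tested for the first and the last. In TPM, Zhx3 was called in every alternative, between -0.89 and -0.62. Over all genes, glmTreat called 1627 in place of 3596, and without the block, on which pairing rests, 3000 were called. DESeq2 called 2847 of 13753 genes, and 2592 with normal shrinkage. The fits without one replicate called 3083 to 3821. With a minimum mean of 1 CPM the sex difference of Zhx2 (0.21) passed the adjusted p. Without replicate 1, 16 genes in place of 346 were called for sex, and Zhx3 no longer passed for sex (-0.36) or batch (0.36), with fewer libraries in the fit. The interactions with sex and with batch were called for 1 and 2 genes and for 0 in either with the 1 CPM minimum (edgeR; 396 and 539 genes had an unadjusted p under 0.05 in the fit without that minimum). Afp, Abcb1a and Lpl rest on 13 to 95 counts per library, which limits the precision of their values.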
